A study of Mus musculus with 35 samples.

Results

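Genes that mark astrocytes were followed in the mouse amygdala. The set was a list of 35 astrocyte gene symbols, and 34 of them were found among the 52636 Ensembl genes of the count files. The long non-coding RNA Ntsr2os could not be matched to an identifier and was not analysed here. The symbols were listed by name, with no threshold on a measured value. They were chosen with earlier results of these data known, so that the shares of them that passed a test are descriptions.

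Amygdala cells had been collected by laser capture microscopy from stained brain sections of female mice after a touchscreen test of cognitive judgment bias. The mice were C57BL/6J, an inbred strain, or B6D2F1N, a hybrid strain, and lived in standard housing or in an enriched environment with access to a playground. In the anterior portion, 4 C57BL/6J standard, 2 C57BL/6J enriched, 5 B6D2F1N standard and 5 B6D2F1N enriched libraries were analysed, and in the posterior portion 4, 4, 5 and 6. These 35 libraries came from 19 mice, and 16 mice (6 C57BL/6J and 10 B6D2F1N) had a library of each portion. All mice of both strains had been trained and tested, and no transgene or drug treatment was described. Training began on post-natal day 70 and the housing treatment on post-natal day 77, and the mice were sampled after the test, at an age the labels do not give. Library totals over genes ran from 16938534 to 27352623 counts. Levels are given as CPM, read counts per library size, with TMM scaling factors.

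Astrocytes clear glutamate and GABA from synapses, buffer potassium and water at their endfeet on blood vessels, are joined by gap junctions, and supply neurons with lipids and metabolites. They differ between brain regions. GFAP, their intermediate filament, is low in much of the grey matter and higher in white matter and beside the ventricles, whereas glutamate transporters are abundant throughout the grey matter. A bulk library holds the RNA of all captured cells, so that fewer cells of a type and less RNA per cell cannot be told apart.

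Several libraries stood apart. Bmp3 and Dcn were used, after their values were seen, to mark such libraries. Bmp3, a growth factor gene, was at 320 to 1369 CPM in 14 anterior libraries but at 178 and 179 CPM in 2 others, B6D2F1N enriched 1 and B6D2F1N standard 3. Dcn, a matrix gene listed here among 8 meningeal fibroblast markers, was at 411 to 1715 CPM in 13 posterior libraries. It was at 8.93 to 174 CPM in the other 6, namely B6D2F1N standard 2, 3, 4 and 5, B6D2F1N enriched 3 and C57BL/6J enriched 2. No other marker of that list was called between the portions, and Col1a2 had medians of 7.45 CPM in anterior and 7.56 CPM in posterior libraries. Which cells gave the Dcn level was not tested. The closest pair of libraries across portions was anterior B6D2F1N enriched 1 and posterior B6D2F1N standard 2, with a root mean square log2 difference of 0.29 against a median of 0.63 over 595 pairs of libraries. The portion comparisons of all mice and of B6D2F1N mice were also computed without these libraries. The 6 mice with both portions to which they belonged were left out, which left 6 C57BL/6J and 4 B6D2F1N mice. The strain, housing and interaction comparisons were not repeated in this way.

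Markers of other cell types were measured beside the astrocyte genes, in a fit that called 8.6% of all genes. All 8 choroid plexus markers and 7 of 8 ependymal markers were higher in the posterior portion, and the summed level of the choroid plexus list was 7.09 to 949 CPM in anterior and 120 to 14480 CPM in posterior libraries. No marker of either list was at 0 in all anterior libraries. The ependymal list ranged from 10.4 to 43.6 CPM and from 22.7 to 240 CPM, respectively. All 8 pan-neuronal markers had lower values in the posterior portion, and 5 of them passed the test, with summed levels of 6545 to 11650 CPM against 4149 to 7832 CPM. None of 10 oligodendrocyte markers passed it, and their sums covered 4994 to 32240 CPM in anterior and 2412 to 28870 CPM in posterior libraries. Smaller counts were called in other lists, where 1 of 8 is 12.5%. Microglia and endothelial markers were called lower in 1 of 8 each, mural markers in 2 of 5 and inhibitory neuron markers in 1 of 8. By sign alone, all 8 microglia, 7 of 8 endothelial, all 5 mural and 7 of 8 inhibitory neuron markers had lower values. Excitatory neuron markers were called lower in 5 of 8, with 1 called higher. Of 8 meningeal markers, 1 was called higher, namely Dcn, and 7 had higher values. No oligodendrocyte precursor or striatal projection neuron marker passed. The part of these cells in the portion differences of the astrocyte genes was not tested, except where a covariate is named.

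Promoters are shown for 4 genes on which the results turn. Agt and Gfap had the largest portion differences of the 34 genes, and Slc1a3 and Gja1 varied together more closely than any other pair. The sequences, 300 bases each on GRCm38.p6 from RefSeq, run from 250 bases before the start of the gene to 50 bases after it, on the gene's strand. Capitals mark matches, on either strand, to 4 motifs that were chosen with the results known. The first was TTGGC, part of the site of NFI factors that act in astrocyte development. The next was TTCNNNGAA, the site of STAT factors. The others were ACAAT, the core of SOX sites, and the TATA box, searched as TATAAA in these windows.
Agt, chr8:124569657-124569956, minus strand: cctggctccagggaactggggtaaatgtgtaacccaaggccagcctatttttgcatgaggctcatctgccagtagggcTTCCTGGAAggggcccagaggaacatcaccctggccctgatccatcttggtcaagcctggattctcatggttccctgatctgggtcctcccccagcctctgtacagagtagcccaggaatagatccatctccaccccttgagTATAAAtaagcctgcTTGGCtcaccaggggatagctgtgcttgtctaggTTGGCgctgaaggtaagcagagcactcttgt
Gfap, chr11:102897151-102897450, minus strand: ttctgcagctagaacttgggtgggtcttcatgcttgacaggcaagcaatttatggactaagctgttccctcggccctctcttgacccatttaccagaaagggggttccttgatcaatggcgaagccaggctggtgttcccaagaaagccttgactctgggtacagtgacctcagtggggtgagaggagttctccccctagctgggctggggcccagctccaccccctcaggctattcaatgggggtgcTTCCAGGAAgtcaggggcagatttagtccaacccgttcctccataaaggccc
Slc1a3, chr15:8710758-8711057, minus strand: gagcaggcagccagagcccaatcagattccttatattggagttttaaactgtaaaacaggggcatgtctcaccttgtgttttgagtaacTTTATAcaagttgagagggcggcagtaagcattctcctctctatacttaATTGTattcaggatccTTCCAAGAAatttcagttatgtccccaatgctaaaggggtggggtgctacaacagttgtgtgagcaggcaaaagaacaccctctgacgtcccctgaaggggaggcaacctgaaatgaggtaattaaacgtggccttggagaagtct
Gja1, chr10:56377050-56377349, plus strand: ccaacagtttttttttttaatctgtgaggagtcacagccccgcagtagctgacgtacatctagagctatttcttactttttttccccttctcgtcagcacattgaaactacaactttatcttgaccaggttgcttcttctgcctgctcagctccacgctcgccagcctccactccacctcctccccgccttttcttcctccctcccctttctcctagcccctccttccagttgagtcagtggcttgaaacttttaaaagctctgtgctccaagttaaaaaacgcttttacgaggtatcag

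The Agt window held a STAT match, a TATA box and 2 NFI matches, and the Gfap window held a STAT match. A STAT match was also present in the Slc1a3 window, with 1 SOX and 1 TATA match, and none of the 4 motifs was found in the Gja1 window. Among 30 astrocyte genes with a promoter in the table, 16 held the NFI letters, 4 the STAT letters, 5 the SOX letters and 4 the TATA box. Over all 32851 promoters of this length, the shares were 46.7%, 8.3%, 31% and 13.6%. The motifs did not overlap each other in these windows. A match is a description of the letters and shows no binding.

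The first comparison was that of the posterior with the anterior portion in the 16 mice with both. Of the 34 astrocyte genes, 10 were higher and 2 were lower in the posterior portion at an adjusted p of at most 0.05 (edgeR's quasi-likelihood test with the mouse as a block, Benjamini-Hochberg adjustment over 29437 genes). That is 12 of 34, where 8.6% of all genes tested passed. All genes with 10 or more counts in sum enter that share, and a share among genes of like level was not computed, here or for the other lists. In the separate directions, 3.91% of all genes were higher and 4.69% lower. The median log2 fold change of the 34 genes was 0.27, against 0.12 for all genes tested, and 26 of them had a positive sign. Without the mice that stood apart, 8 astrocyte genes were higher and none was lower. Slc1a2 (-0.51), Acsl6 (-0.36), Aqp4 (0.32), F3 (0.35) and Sox9 (0.53, all log2 fold changes) lost their call there, and Cldn10 (0.41) gained one. The number of genes detected was higher in the posterior portion in 13 of 16 mice, and with it as a covariate 9 genes passed. The calls of Slc1a2 (-0.43), Slc6a11 (0.55), Aqp4 (0.22), Mlc1 (0.45), Gjb6 (0.55), Acsl6 (-0.36) and F3 (0.34, all log2 fold changes) were lost in that fit. Slc1a3 (0.48), Slc7a10 (0.92), Apoe (1.70) and S100b (-0.88) were called in it.

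**Figure D1:**
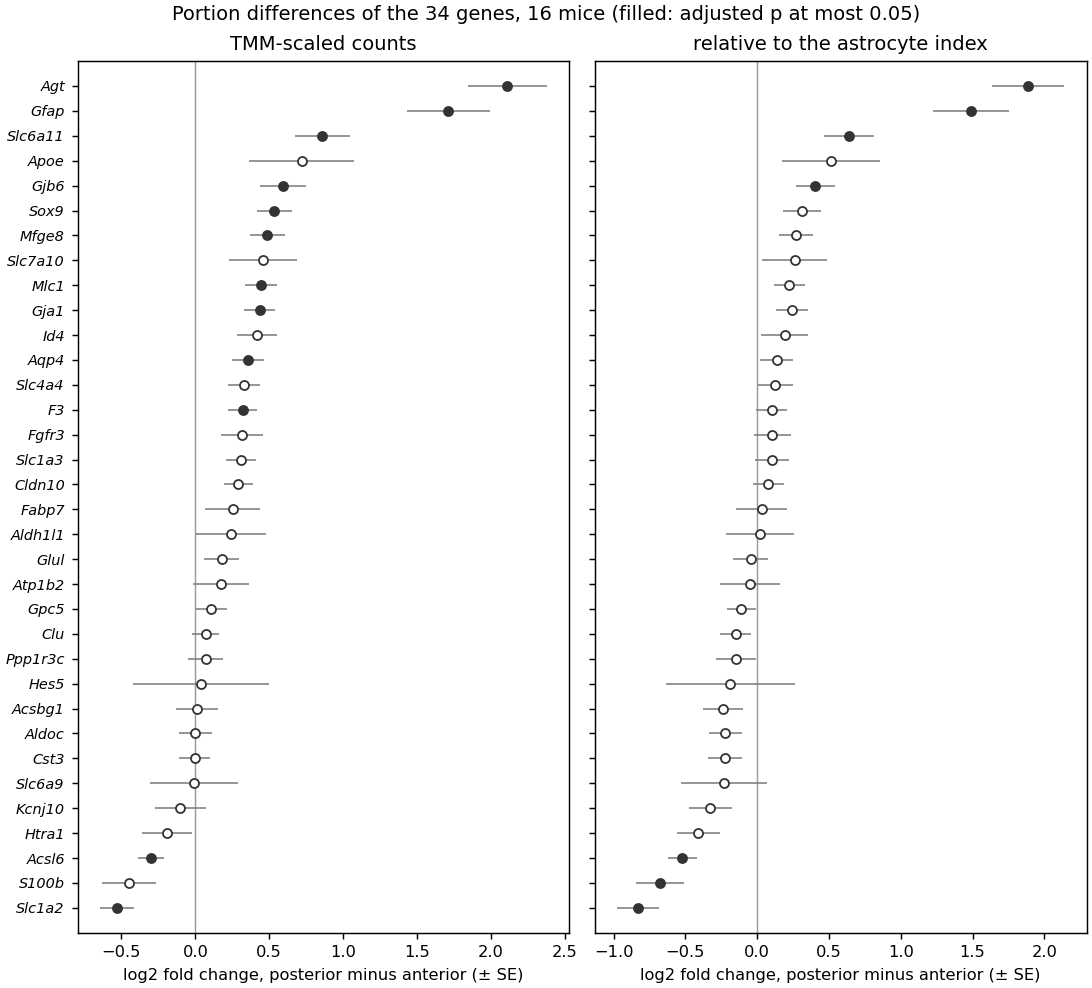
Log2 fold change of each of the 34 astrocyte genes between the posterior and anterior portions of 16 mice, with its standard error, on TMM-scaled counts (left) and relative to the astrocyte index (right). Filled points passed an adjusted p of 0.05. Agt (2.11 and 1.89) and Gfap (1.71 and 1.49) lie far to the right in both panels, and Slc1a2 (-0.53 and -0.83) is at the bottom.

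Secreted proteins came first by size of the difference. Agt encodes angiotensinogen, the precursor of angiotensin peptides, which astrocytes make in the brain. Its level was 16.1 CPM at the lowest, 39.3 at the median and 257 CPM at the highest over 16 anterior libraries, and 96.0, 198 and 358 CPM over 19 posterior libraries. The portions overlapped through 2 anterior libraries, C57BL/6J enriched 1 at 257 CPM and B6D2F1N standard 3 at 166 CPM, whereas the other 14 anterior libraries lay below every posterior one. Agt was higher in the posterior portion in 15 of 16 mice, with a log2 fold change of 2.11 ± 0.27 (SE) and an adjusted p of 5.04e-06 (edgeR). The exception was C57BL/6J enriched 1, which fell from 257 to 175 CPM. The value was 2.13 without the mice that stood apart, with an adjusted p of 3.35e-04 (edgeR).

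Mfge8, which encodes a bridging protein in the clearance of apoptotic cells, was at 220, 320 and 469 CPM (lowest, median, highest) in anterior libraries and at 186, 449 and 724 CPM in posterior ones. It was higher in the posterior portion in 15 of 16 mice, by 0.49 ± 0.12 on the log2 scale (SE, adjusted p = 0.0082, edgeR), and the portions overlapped. Apoe, the main apolipoprotein of the brain, ranged from 423 to 8601 CPM over all libraries and did not pass the test (log2 fold change 0.72 ± 0.36, SE, adjusted p = 0.26, edgeR). Clu, Cst3 and Htra1, which encode clusterin, cystatin C and a serine protease, did not pass it either (adjusted p = 0.74, 0.99 and 0.57, edgeR).

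Of the cytoskeletal and calcium-binding genes, Gfap rose. Its lowest, median and highest levels were 11.0, 83.3 and 535 CPM in anterior libraries and 98.7, 319 and 791 CPM in posterior libraries. Gfap was higher in the posterior portion in 14 of 16 mice (log2 fold change 1.71 ± 0.28, SE, adjusted p = 1.46e-04, edgeR). The portions overlapped, and the highest anterior library was B6D2F1N enriched 1, which stood apart. Its mouse fell from 535 to 281 CPM, and B6D2F1N standard 5 was at 99.9 and 98.7 CPM. Without the mice that stood apart the log2 fold change was 1.71.

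S100b, a calcium-binding protein gene that oligodendrocytes also express, went the other way in value, at 68.1, 124 and 227 CPM in anterior and 28.6, 93.6 and 316 CPM in posterior libraries. Its log2 fold change of -0.45 ± 0.18 (SE) did not pass the test (adjusted p = 0.15, edgeR). S100b overlaps Dip2a on the opposite strand, and the strand setting of the counting is not given in the sources used here.

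**Figure D2:**
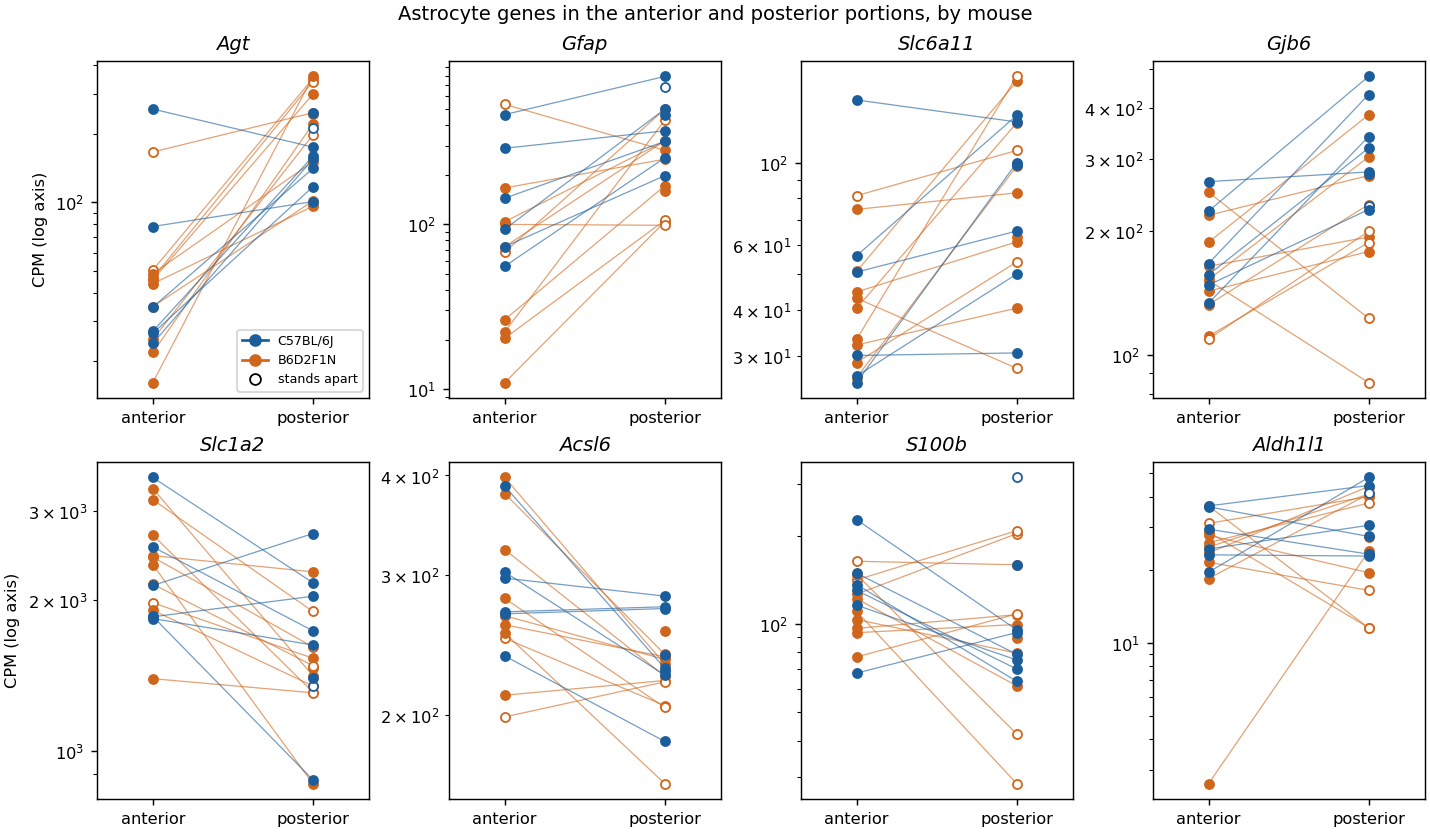
Level in CPM (log axis) of 8 astrocyte genes in anterior and posterior libraries, with the libraries of a mouse joined and coloured by strain. Open points are the 8 libraries that stood apart. Nearly all lines rise for Agt (15 of 16 mice) and most fall for Slc1a2 (14 of 16 mice).

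The 2 glutamate transporters of astrocytes differed. Slc1a2 (GLT-1), which carries most glutamate uptake of the forebrain, was at 1393, 2247 and 3500 CPM (lowest, median, highest) in anterior libraries and at 861, 1478 and 2707 CPM in posterior ones. It was lower in the posterior portion in 14 of 16 mice (log2 fold change -0.53 ± 0.12, SE, adjusted p = 0.0035, edgeR), although the portions overlapped. Without the mice that stood apart the value was -0.51 and no longer passed (adjusted p = 0.063, edgeR). Slc1a3 (GLAST) was higher in the posterior portion in 14 of 16 mice and missed the threshold (log2 fold change 0.31 ± 0.10, SE, adjusted p = 0.060, edgeR).

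Slc6a11 (GAT-3), which takes up GABA, was at 25.4, 41.7 and 148 CPM in anterior libraries and at 27.8, 97.9 and 171 CPM in posterior ones. It was higher in the posterior portion in 14 of 16 mice, by 0.86 ± 0.19 on the log2 scale (SE, adjusted p = 0.0031, edgeR). The highest anterior library was again C57BL/6J enriched 1. Glul, the glutamine synthetase gene, and the glycine and neutral amino acid transporter genes Slc6a9 and Slc7a10 did not pass the test, with log2 fold changes of 0.18, -0.01 and 0.46.

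Both gap junction genes were higher in the posterior portion. Gjb6 (connexin 30) was at 109, 155 and 265 CPM (lowest, median, highest) in anterior and 85.4, 274 and 479 CPM in posterior libraries, with a log2 fold change of 0.59 ± 0.15 (SE, adjusted p = 0.013, edgeR). In 10 of the 19 posterior libraries Gjb6 was above every anterior one, while the lowest posterior libraries, B6D2F1N standard 4 and 5, stood apart. Without all 6 mice that stood apart the value was 0.84, with an adjusted p of 4.45e-04 (edgeR). Gja1 (connexin 43) went from 557, 825 and 1268 CPM to 541, 1019 and 1868 CPM, a log2 fold change of 0.44 ± 0.10 (SE, adjusted p = 0.0069, edgeR). Cldn10, a claudin gene, missed the threshold (0.29 ± 0.10, SE, adjusted p = 0.069, edgeR).

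Among 5 genes of ion and water transport, 2 were higher in the posterior portion. Mlc1, a membrane protein of astrocyte endfeet, was at 141, 241 and 291 CPM in anterior and 209, 283 and 678 CPM in posterior libraries, with a log2 fold change of 0.44 ± 0.11 (SE, adjusted p = 0.0087, edgeR). Aqp4, the water channel, was at 77.6, 108 and 178 CPM and at 95.0, 133 and 282 CPM, and its difference was near the threshold (0.36 ± 0.11, SE, adjusted p = 0.042, edgeR). Aqp4 no longer passed when any of 11 of the 16 mice was left out. Slc4a4, a bicarbonate transporter gene, was close to the threshold at 0.33 (adjusted p = 0.059, edgeR), and the potassium channel gene Kcnj10 and the sodium pump subunit gene Atp1b2 had values of -0.10 and 0.18 and did not pass.

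Of 6 metabolic genes, 1 passed the test. Acsl6, which activates long-chain fatty acids and is also expressed in neurons, was lower in the posterior portion, at 199, 269 and 398 CPM in anterior and 164, 229 and 282 CPM in posterior libraries (log2 fold change -0.30 ± 0.09, SE, adjusted p = 0.031, edgeR). It was lower in 12 of 16 mice, and the portions overlapped. Aldh1l1, a folate enzyme widely used as a pan-astrocyte marker, was low, at 2.63, 25.3 and 36.6 CPM in anterior and 11.5, 27.4 and 48.0 CPM in posterior libraries. Its log2 fold change was 0.24 ± 0.24 (SE), with an adjusted p of 0.63 (edgeR). The glycolytic enzyme gene Aldoc, the lipid genes Acsbg1 and Fabp7 and the glycogen gene Ppp1r3c did not pass (adjusted p = 0.9991, 0.98, 0.50 and 0.81, edgeR).

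Of the transcription factors and signalling genes, Sox9, which maintains astrocyte identity, was higher in the posterior portion. It was at 42.2, 55.3 and 88.3 CPM (lowest, median, highest) in anterior and 31.5, 85.0 and 198 CPM in posterior libraries (log2 fold change 0.54 ± 0.12, SE, adjusted p = 0.0037, edgeR). Without the mice that stood apart Sox9 was at 0.53 and did not pass (adjusted p = 0.066, edgeR). Id4, an inhibitor of DNA-binding factors, stood just outside the threshold at 0.42 (adjusted p = 0.0505, edgeR). The growth factor receptor gene Fgfr3 (0.32) and the Notch target Hes5 (0.04) did not pass. Hes5 was low, with a median of 4.30 CPM in anterior libraries, and ranged from 1.09 to 40.8 CPM over all libraries. At the cell surface, F3 (tissue factor) was at 61.2, 97.0 and 152 CPM and at 81.3, 108 and 196 CPM (0.32 ± 0.10, SE, adjusted p = 0.039, edgeR), and Gpc5, a glypican gene, did not pass (0.11).

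Levels per kilobase of exon in the anterior libraries were highest for Cst3 (mean 2676 CPM per kb) and Apoe (1357 CPM per kb). Slc1a2 and Slc1a3, with means of 179 and 160 CPM per kb there, were in the reverse order in posterior libraries, at 122 and 196 CPM per kb. The lowest mean levels per kilobase were those of Slc6a9, at 2.83 and 2.98 CPM per kb.

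A list of 44 further astrocyte genes, none of them among the 34, gave 10 higher and 2 lower in the posterior portion, with a median log2 fold change of 0.22. That is 27.3% of the list, where 8.6% of all genes passed. This list, too, was chosen with earlier results of these data known. The strongest were Etnppl, an enzyme of phosphoethanolamine breakdown, and Slc14a1, a urea transporter gene, with log2 fold changes of 0.98 and 0.96 (adjusted p = 1.13e-04 and 1.19e-04, edgeR). Mertk, a phagocytic receptor gene, and Chrdl1, a secreted BMP antagonist gene, were lower, at -0.43 and -1.10. Of 14 genes known from reactive astrocytes, 2 (14.3%, against 8.6% of all genes) passed the test in opposite directions. The complement gene C4b rose by 1.34 and Serpina3n, a protease inhibitor gene, had a log2 fold change of -0.75 (adjusted p = 4.79e-04 and 0.0018, edgeR). Some of the 14 were hardly detected, with medians of 0 CPM in both portions for Lcn2, Steap4 and Cxcl10.

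The next question was which genes followed a common astrocyte level and which differed between the portions beyond it. The common level, called the astrocyte index, was the mean log2 CPM of 10 of the 34 genes (Slc1a2, Slc1a3, Aldh1l1, Gja1, Gjb6, Acsbg1, Slc4a4, Atp1b2, Fgfr3 and Cldn10). These genes did not all vary together, as given below, so the index is an average and not a measured number of cells. It lay between 7.69 and 8.28 in anterior and between 7.72 and 8.68 in posterior libraries. The index was higher in the posterior portion by 0.21 ± 0.27 (SD, n = 16 mice), in 14 of 16 mice. The mean difference was 0.34 ± 0.30 in 6 C57BL/6J mice and 0.12 ± 0.23 in 10 B6D2F1N mice (SD). The mice that stood apart were all B6D2F1N here. They included B6D2F1N standard 4 and 5, the only mice in which the index was lower in the posterior portion. The strain means were not computed without the mice that stood apart, so a strain difference of the index was not tested.

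When the portion was fitted with library sizes set by the index, leaving the tested gene out of it, 7 of the 34 genes passed. The background of this fit was higher, with 12.2% of all 29437 genes called, 2.49% higher and 9.7% lower in the posterior portion, and the median over all genes moved from 0.12 to -0.08. Agt (1.89 ± 0.25), Gfap (1.49 ± 0.27), Slc6a11 (0.64 ± 0.17) and Gjb6 (0.40 ± 0.13) were higher than the index would give (log2 fold change ± SE, edgeR). Slc1a2 (-0.83 ± 0.14), S100b (-0.68 ± 0.17) and Acsl6 (-0.52 ± 0.10) were lower. The adjusted p-values were 3.43e-06, 1.80e-04, 0.012, 0.049, 1.02e-04, 0.0061 and 5.68e-04 in this order (edgeR). Gjb6 is thus near the threshold.

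Of the 12 genes called without the index, 6 did not pass relative to it. Sox9, Mfge8, Gja1, Mlc1, Aqp4 and F3 had values between 0.10 and 0.31, with adjusted p-values between 0.13 and 0.67 (edgeR). With the index as a covariate with its own slope for each gene, 4 genes passed, and Slc1a2, Slc6a11, Gjb6 and S100b were no longer called (adjusted p = 0.15, 0.22, 0.54 and 0.060, edgeR). Id4 passed in that fit, at 0.59 (adjusted p = 0.048, edgeR). With an index of all members Gjb6 was no longer called (adjusted p = 0.18, edgeR). Without the mice that stood apart, 7 passed, and Slc6a11 was no longer called (adjusted p = 0.17, edgeR) while Kcnj10 was, at -0.50 (adjusted p = 0.038, edgeR).

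Within groups, the genes fell into sets that varied together. After the mean of each of the 8 groups was subtracted, the log2 CPM of a gene was correlated over the 35 libraries with the index from which the gene was left out. Members share these libraries, and mice with both portions contribute a pair of them, so the correlations are descriptions. The median over the 34 genes was 0.34, and 12 genes were above 0.5. Mlc1 (Pearson's r = 0.75, Spearman's rho = 0.74), Htra1 (0.72 and 0.68), Clu (0.71 and 0.59) and F3 (0.69 and 0.55) followed the index most closely. The same genes also correlated with the microglia score, the mean of 8 microglia markers, at 0.57 for Mlc1, 0.58 for Htra1, 0.63 for Clu and 0.69 for F3, and Mfge8 correlated more with it (0.74) than with the index (0.55). Without the 2 libraries farthest from the median index, r was 0.68 for Mlc1, 0.67 for Htra1 and 0.63 for Clu. Of the 12 genes above 0.5, Gja1 (0.35), Mfge8 (0.38), Slc4a4 (0.45) and Gjb6 (0.47) then fell under it.

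Over all libraries, Agt and Gfap had r of 0.02 and 0.04 with the index. Taken by portion, the r of Agt was -0.29 over anterior and 0.38 over posterior libraries, and that of Gfap was -0.04 and 0.15. Aldh1l1 (-0.15), Glul (-0.10), S100b (-0.08) and Fabp7 (-0.02) also had r near or under 0 over all libraries. Aldh1l1 is one of the genes most used to count astrocytes. It belongs to the index, as do Atp1b2 and Acsbg1, whose r with the rest of the index was 0.14 and 0.03. The other index genes had r from 0.41 (Slc1a2) to 0.66 (Fgfr3). Within the index, Aldh1l1 correlated with Atp1b2 at -0.53 and with Slc1a3 at -0.45. Over 136 relations of the 34 genes with 4 library measures no p-value was computed. Relations with the microglia, choroid plexus and ependymal scores and with a slope on GC content were also computed, again without p-values. The closest pair of genes was Slc1a3 and Gja1 (r = 0.93), followed by Slc1a3 and Mfge8 (r = 0.88).

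**Figure D3:**
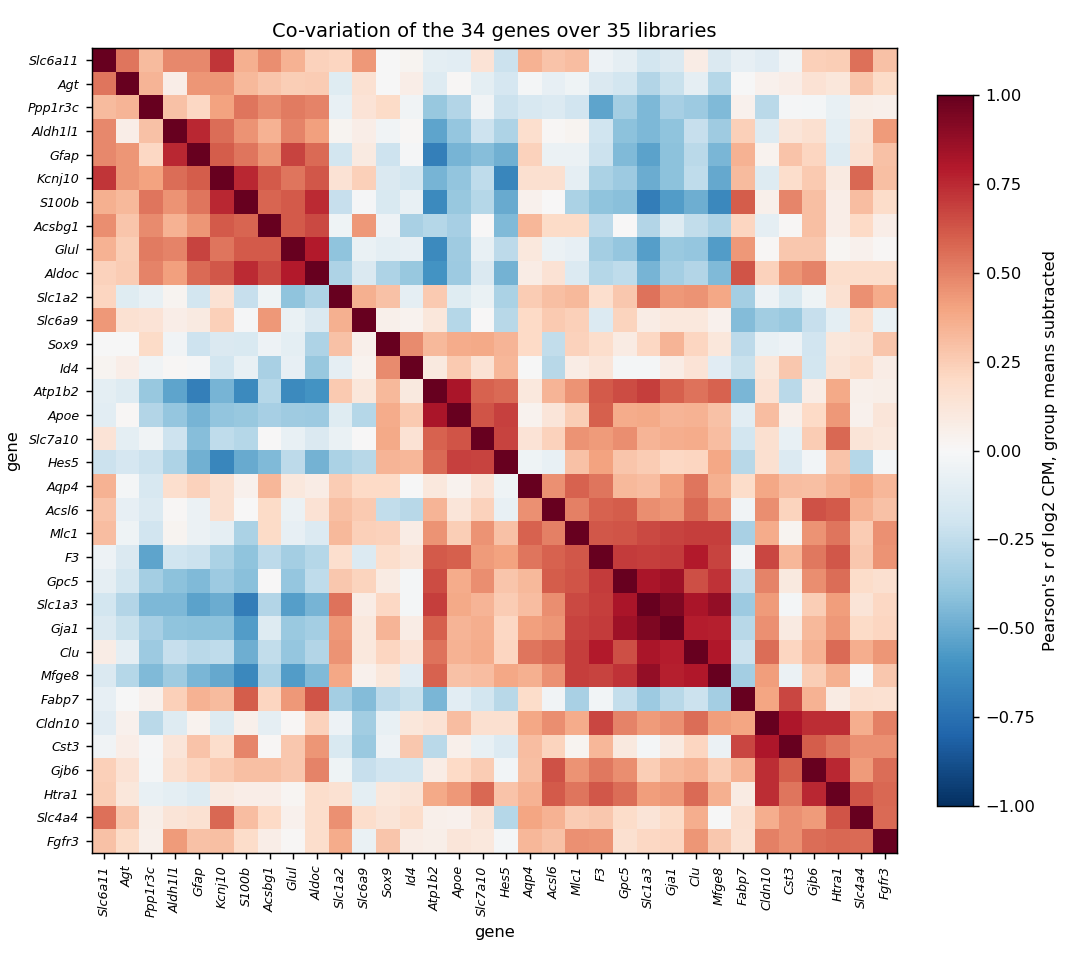
Pearson's r between the log2 CPM of each pair of the 34 astrocyte genes over 35 libraries, after subtraction of group means, with genes ordered by average linkage. A block around Slc1a3, Gja1, Clu and Mfge8 (r = 0.93 for Slc1a3 with Gja1) faces a block of Gfap, Kcnj10, S100b, Glul and Aldoc (r = -0.69 for Slc1a3 with S100b).

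Another set varied with the oligodendrocyte score, the mean log2 CPM of 10 oligodendrocyte markers. Of the 34 genes, 9 correlated with it above 0.5, namely Gfap (r = 0.76, rho = 0.73), Kcnj10 (0.74 and 0.62), S100b (0.72 and 0.57), Glul, Aldoc, Slc6a11, Acsbg1, Aldh1l1 and Agt (0.56 and 0.73). Without the 2 libraries farthest from the median score, r was 0.70 for Gfap and 0.60 for Agt. Kcnj10, S100b and Glul are known to be expressed in oligodendrocytes as well. With the ependymal score, the mean of 8 ependymal markers, r was 0.54 for Sox9, 0.52 for Glul and 0.48 for Gfap, and the part of ependymal cells in their portion values was not tested. Gfap, S100b and Kcnj10 also correlated with the number of genes detected in the library (0.76, 0.62 and 0.72).

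The portion difference of Gfap was 1.61 and that of Agt 2.07 with the oligodendrocyte score as a covariate, and both passed the test (adjusted p = 2.71e-05 and 7.37e-06, edgeR). With the number of genes detected as a covariate they were 1.26 and 1.78 (adjusted p = 0.018 and 0.0011, edgeR). S100b passed with the oligodendrocyte score as a covariate, at -0.51 (adjusted p = 0.036, edgeR), and with the number of genes detected, at -0.88 (adjusted p = 0.0043, edgeR).

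Some genes fell as more genes were detected, and they were not a set apart from those above. Apoe (r = -0.71), Atp1b2 (-0.71), Hes5 (-0.69), Slc1a3 (-0.65) and Mfge8 (-0.61) were among 10 genes with r under -0.5. Clu (-0.50), F3 (-0.55), Gpc5 (-0.53) and Gja1 (-0.55) were too, and these genes and Mfge8 had r above 0.5 with the index. The genes above 0.5, namely Gfap, Kcnj10, Aldh1l1, S100b, Acsbg1 and Glul, all varied with the oligodendrocyte score as well. The number of genes detected was 18580 to 23580 in anterior and 21110 to 25530 in posterior libraries. Apoe, at 0.72 in the portion comparison, was at 1.70 with this number as a covariate (adjusted p = 0.0031, edgeR).

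Slc1a2 varied with another property of the library, the slope of log2 CPM on log2 transcript length over 8015 genes. Its r was 0.83 (rho = 0.77), and 0.78 without the 2 farthest libraries, while Fabp7 went the other way (r = -0.71). This slope was -0.14 to 0.14 in anterior and -0.24 to 0.14 in posterior libraries, and was higher in the posterior portion in 7 of 16 mice. With the slope as a covariate, Slc1a2 was lower in the posterior portion by a log2 fold change of -0.45 (adjusted p = 0.0037, edgeR).

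**Figure D4:**
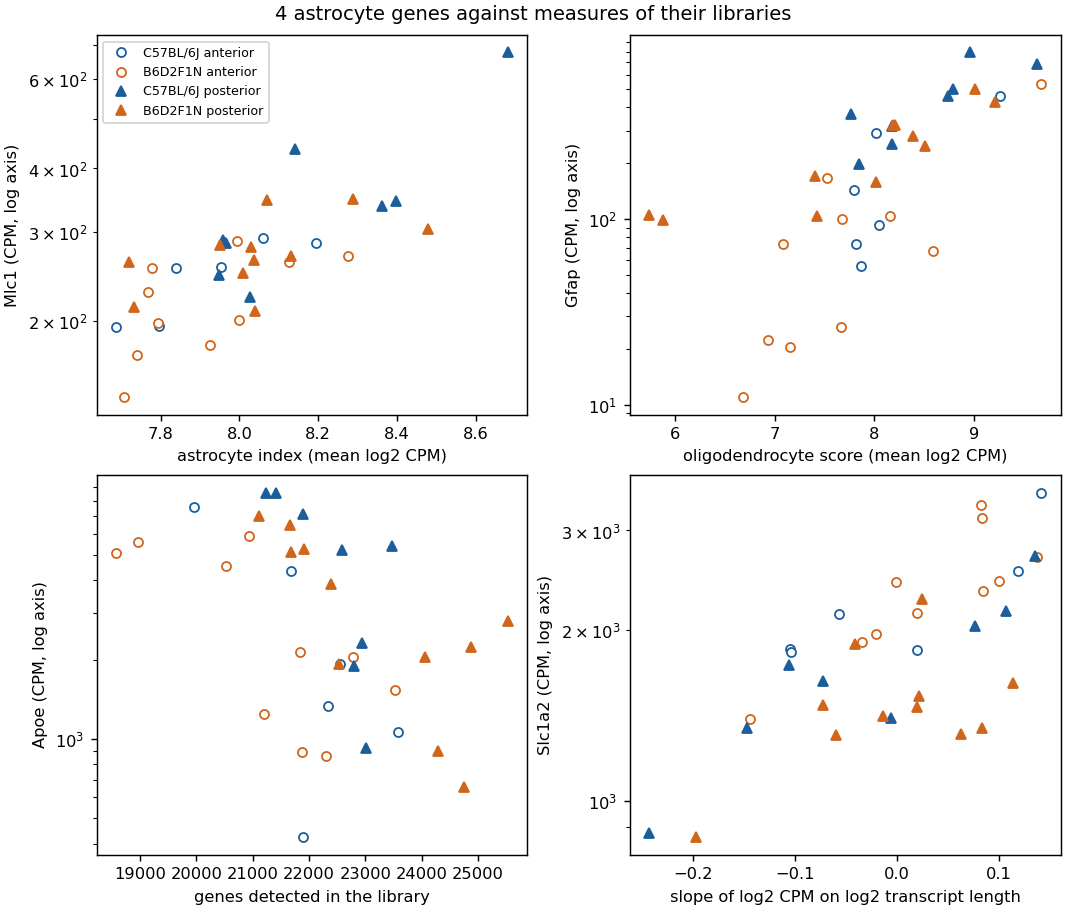
Level in CPM (log axis) of 4 astrocyte genes in each of the 35 libraries against the astrocyte index (Mlc1), the oligodendrocyte score (Gfap), the number of genes detected (Apoe) and the slope on transcript length (Slc1a2). Open circles are anterior and filled triangles posterior libraries. Mlc1, Gfap and Slc1a2 rise and Apoe falls along the horizontal axis (group-centred r of 0.75, 0.76, 0.83 and -0.71).

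In the 6 C57BL/6J mice, 6 of the 34 genes were higher in the posterior portion and none was lower, where 3.64% of 25751 genes passed (1.54% higher, 2.1% lower). They were Gfap (log2 fold change 1.38 ± 0.23), Agt (1.58 ± 0.35), Gjb6 (0.93 ± 0.18), Mfge8 (0.87 ± 0.15), Gja1 (0.73 ± 0.15) and Slc1a3 (0.61 ± 0.15, all SE). Without the mouse block, 2 genes passed, Gjb6 and Mfge8, and Gfap, Agt and Gja1 were among those lost in this fit that ignores the pairing (adjusted p = 0.22, 0.36 and 0.070, edgeR). Without C57BL/6J standard 4, 3 genes passed. Agt lost its call when either of 2 of the 6 mice was left out, and Gja1 when 1 was.

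In the 10 B6D2F1N mice, 4 genes were higher and 1 was lower, where 4% of 27761 genes passed (1.62% higher, 2.37% lower). Agt (2.41 ± 0.30), Gfap (1.93 ± 0.40), Slc6a11 (0.93 ± 0.24) and Sox9 (0.49 ± 0.14) were higher, and Slc1a2 (-0.66 ± 0.14, all SE) was lower. Without the mice that stood apart 2 genes passed, Agt (2.96) and Gfap (2.21). Leaving out B6D2F1N standard 2, B6D2F1N standard 4, B6D2F1N enriched 1 or B6D2F1N enriched 4 left 3 genes each time. Sox9 lost its call when any of 7 of the 10 mice was left out, and Slc6a11 when any of 6 was.

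The portion difference itself was not shown to depend on strain or housing. None of the 34 genes passed the interaction of portion with strain or with housing, where 0% of 29437 genes did so in either fit (edgeR), and DESeq2 called none of the 34. An unadjusted p under 0.05 was reached by 2.96% of all genes for strain and 3.29% for housing. Of the 34 genes, 3 reached it by strain, Mfge8, Slc1a3 and Gja1, whose portion difference in B6D2F1N minus that in C57BL/6J was -0.64, -0.50 and -0.49 on the log2 scale. By housing there were 2, Aldh1l1 and Fgfr3, at 0.93 and 0.56 in enriched minus standard housing. For both, the lowest anterior library was B6D2F1N enriched 2, at 2.63 CPM for Aldh1l1 and 29.7 CPM for Fgfr3. Neither fit was repeated with 1 mouse left out or without the mice that stood apart, all of which in these fits were B6D2F1N.

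Strains were compared within each housing and portion. None of the 34 genes passed in any of the 4 fits (edgeR), where 0.37% of all genes passed in standard anterior, 0.373% in standard posterior, 0.0639% in enriched anterior and 0.394% in enriched posterior libraries. At an unadjusted p under 0.05 the numbers were 3, 7, 6 and 5 of the 34 genes, against 9%, 10.3%, 4.33% and 9.11% of all genes. DESeq2 called 1, 0, 1 and 2 of them, against 1.05%, 1.56%, 0.584% and 1.33% of all genes. The fits were not repeated without all the libraries that stood apart, which included 4 of 5 in posterior B6D2F1N standard mice. Gfap had the smallest unadjusted p. In enriched posterior libraries it was at 463, 592 and 791 CPM (lowest, median, highest) in 4 C57BL/6J and at 104, 265 and 322 CPM in 6 B6D2F1N libraries, which do not overlap. Its log2 fold change in B6D2F1N was -1.34 ± 0.29 (SE, adjusted p = 0.063, edgeR). Gfap was 1 of the 2 genes that DESeq2 called in this comparison (adjusted p = 0.0018, DESeq2). The oligodendrocyte markers summed to 18350 to 28870 CPM in the C57BL/6J and to 7021 to 16700 CPM in the B6D2F1N libraries, which do not overlap either, and their part in the difference of Gfap was not tested.

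Housing was compared within each strain and portion, and again none of the 34 genes passed (edgeR). Of all genes, 0% passed in the anterior portion of C57BL/6J and in both portions of B6D2F1N mice, and 0.0163% in the posterior portion of C57BL/6J mice. At an unadjusted p under 0.05 there were 7 and 8 of the 34 genes in the anterior and posterior portions of C57BL/6J, against 6.2% and 10.3% of all genes. In those of B6D2F1N mice there were 2 and 1, against 6.3% and 6.59%. DESeq2 called 2, 2, 0 and 0, against 0.437%, 1.3%, 0.0325% and 0.0499% of all genes. These fits, too, were not repeated without all the libraries that stood apart, 4 of 5 in posterior B6D2F1N standard mice.

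The smallest unadjusted p of the housing fits was that of Gfap in the posterior portion of C57BL/6J mice. Gfap was at 197 to 370 CPM in 4 standard and at 463 to 791 CPM in 4 enriched libraries, without overlap (log2 fold change 1.10 ± 0.25, SE, adjusted p = 0.19, edgeR). The value lay between 0.94 and 1.24 when 1 library was left out, including C57BL/6J enriched 2, which stood apart. Slc6a9, at 2.97 to 13.1 CPM and 14.3 to 33.6 CPM, did not overlap either (1.83 ± 0.44, SE, adjusted p = 0.20, edgeR), whereas Kcnj10 did, at 28.5 to 74.4 CPM and 60.6 to 118 CPM (1.09 ± 0.31, SE, adjusted p = 0.29, edgeR). DESeq2 called Gfap and Slc6a9 in this comparison (adjusted p = 0.0053 and 0.0095, DESeq2). The summed oligodendrocyte markers were 8345 to 12970 CPM in the standard and 18350 to 28870 CPM in the enriched libraries. Their part in these values was not tested.

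In the anterior portion of C57BL/6J mice, where only 2 enriched libraries were analysed, Slc6a11 was at 25.4 to 50.6 CPM in standard and at 56.0 and 148 CPM in enriched libraries (1.62 ± 0.36, SE, adjusted p = 0.48, edgeR). DESeq2 called Slc6a11 and Kcnj10 there (adjusted p = 0.027 for each, DESeq2). The oligodendrocyte markers summed to 25080 CPM in one of these enriched libraries and to 10460 CPM in the other.

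**Figure D5:**
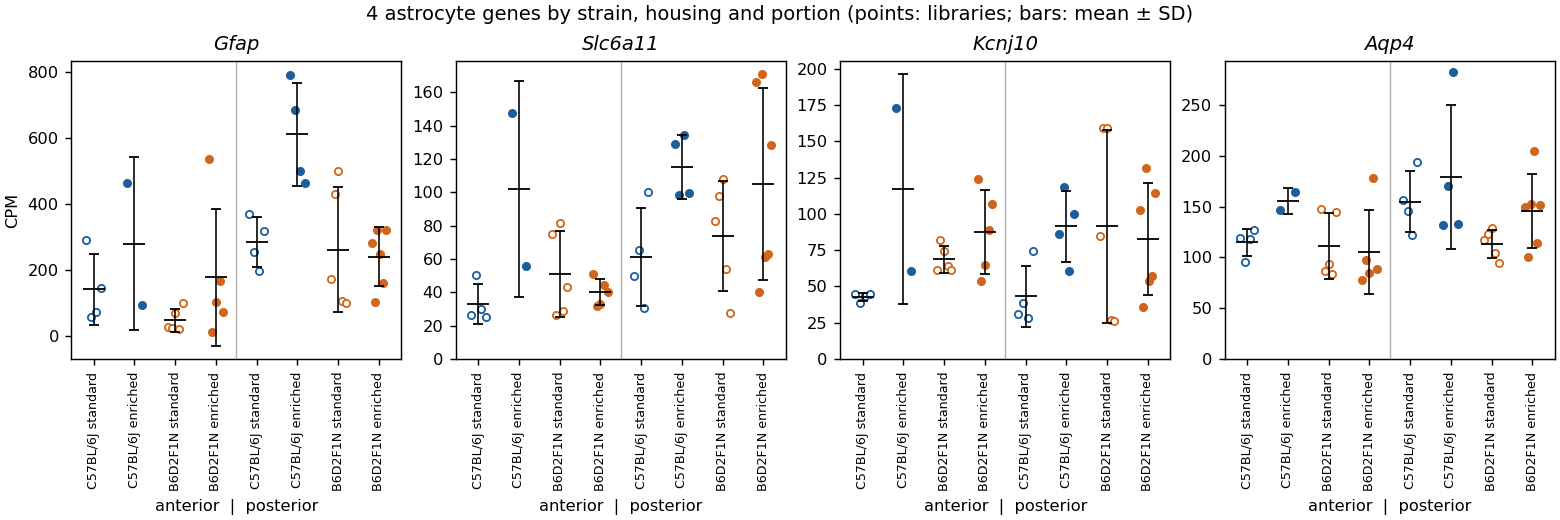
Level in CPM of 4 astrocyte genes in the 8 groups, with each library as a point (open for standard, filled for enriched housing) and the mean ± SD. For Gfap, the 4 posterior C57BL/6J enriched libraries (463 to 791 CPM) lie above the 4 standard ones (197 to 370 CPM).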

How the data were processed

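Per the labels and the study's methods, the authors trimmed single reads (Trimmomatic 0.38), mapped them on GRCm38 (HISAT2 2.1.0) and counted primary alignments (HTSeq 0.11.2). The deposited values are raw read counts per Ensembl gene, neither normalized nor filtered. The annotation release and strand setting of the counting are not given in the sources used here. HTSeq's totals of reads assigned to no gene were left out, at 13.7% to 26.4% of the reads for no feature, 3.06% to 3.74% for ambiguous and 6.23% to 10.9% for multiply aligned reads.

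Here, symbols, positions and exon lengths came from GENCODE M21. Genes with 10 or more counts summed over the libraries of a comparison entered edgeR 4.0.16 (R 4.3.3) with TMM scaling, and those with an adjusted p up to 0.05 were called. Standard errors were derived from the F statistic. Log2 CPM carry a prior count of 2. Libraries of a mouse were paired because they came from the same animal. Their deviations from group means correlated with a median r of 0.15 over 16 mice (range -0.15 to 0.28, across 8022 genes, which are not replicates).

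The members and all gene lists were chosen with earlier results of these data known. Genes described one by one were those called in the portion fit or relative to the index, plus Slc1a2, Aldh1l1, Aqp4 and Gfap. Of these last genes, only Aldh1l1 was not called. For other lists, the 2 genes with the smallest p per direction were named. Genes close to a threshold or with notable group values were named after their values were seen. Covariates other than the index, and the fits without mice that stood apart (anterior Bmp3 or posterior Dcn under 200 CPM), were added after seeing the data. Tests were run on simulated counts. DESeq2 1.42.0 served as an alternative.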

Additional observations from a re-analysis of the deposited data

Results flagged for a closer look

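A library far from the others of its group, on the log2 scale and by Dixon's test, was found in 5 of 98 combinations of a gene and a group of 4 to 6 libraries, and chance alone flags about 1 in 20. Slc1a2 was at 861 CPM in the posterior B6D2F1N enriched 2 library, against 1310 to 1529 CPM in the other libraries of that group. Agt was at 96.0 CPM in the same library, against 221 to 358 CPM. Aldh1l1 was at 2.63 CPM in the anterior library of that mouse, against 18.4 to 36.6 CPM. Aqp4 was at 178 CPM in the anterior B6D2F1N enriched 4 library, against 77.6 to 97.5 CPM. F3 was at 108 CPM in the posterior C57BL/6J standard 3 library, against 155 to 162 CPM.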

How the results depend on the processing

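The portion calls of all mice stayed between 8 and 16 of 34 genes under every alternative run. Leaving out 1 mouse gave 9 to 15 genes, with the dispersion trend of all mice. Without the replicate block (the pairing by mouse), 11 genes passed in all mice, 2 in C57BL/6J and 4 in B6D2F1N mice. In C57BL/6J, 10 genes passed with no minimum count, and leaving out a mouse gave 3 to 8. In B6D2F1N, leaving out a mouse gave 3 to 5, and leaving out the mice that stood apart gave 2. Relative to the index, 4 genes passed with the index as a covariate. A term for the number in the sample title changed no housing count. The strain fits, with none called, gave 1 gene with DESeq2 in standard anterior, 1 with DESeq2 and 2 with no minimum in enriched anterior, and 2 with DESeq2 and 1 with no minimum in enriched posterior libraries. The housing fits of C57BL/6J gave 2 with DESeq2 and 6 with no minimum in anterior, and 2 with DESeq2 and 1 with no minimum in posterior libraries, where leaving out a mouse gave 0 to 1 (C57BL/6J enriched 3 gave the 1). The cause was not tested. No called gene changed direction under any alternative run. DESeq2 called 1535 genes in all against 937 in C57BL/6J and 1994 against 1110 in B6D2F1N mice, and 3955 against 2532 passed in all mice without the block.

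Aqp4, Acsl6 and F3 lost their call when any of 11, 9 and 9 of the 16 mice was left out. Leaving a mouse out of the enriched anterior C57BL/6J pair leaves 1 library, assumed to vary like the other group. The median tracking of the index was 0.27 in anterior and 0.39 in posterior libraries apart. The count files carry no molecular identifiers, so depth limits cover counting error only. The methods give the section range nearer to bregma to the posterior portion, and if the names were exchanged, every portion difference would change its sign.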
